A study of Mus musculus with 43 samples.

Results

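The named U RNAs were all rows of the 3 small RNA count tables whose name starts with Rnu, the mouse symbol stem of the uridine-rich small nuclear and nucleolar RNAs. The rule used names only and left out the unnamed copies, which carry Gm symbols. It found 22 rows of 5364 RNAs listed in any table. There were 22 rows in the tissue table of 4890 RNAs, 20 in the fluid table of 3178 and 21 in the sperm table of 4323. The 22 rows belonged to 17 gene symbols, and rows that share a sequence were counted once, as 13 distinct RNAs: Rnu1a1, Rnu1b1 with Rnu1b2, Rnu1b6, Rnu2-10, Rnu5g, Rnu6, Rnu6-ps2, Rnu11, Rnu12, Rnu7, Rnu3a, Rnu3b1 to Rnu3b4, and Rnu73b. All 13 passed the filter on low counts in tissue, 10 of 11 passed in fluid, where Rnu73b was too low, and 11 of 12 passed in sperm, where Rnu6-ps2 was too low. U4 and the minor U4atac and U6atac RNAs were not analysed here.

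The study asked what deletion of Rnase9-12, a cluster of 4 RNase A family genes expressed in the epididymis, does to small RNAs of the male tract. FVB mice aged 8 to 12 weeks were either WT or homozygous for a CRISPR/Cas9 deletion of the whole cluster made with 2 guide RNAs (KO), a germline deletion that is carried by all cells and is not limited to the epididymis. Tissue was sequenced by ARM-seq from 3 WT and 3 KO libraries of the caput (proximal), 3 WT and 2 KO of the corpus and 3 WT and 3 KO of the cauda (distal) epididymis, and how many mice each library holds is not given in the sources used here. Luminal fluid of the same segments, freed of sperm and extracellular vesicles, was sequenced by OTTR-seq in 3 WT and 3 KO libraries per segment, and cauda sperm in 4 WT and 4 KO libraries, with 3 mice pooled in each. The mRNAs of the 4 deleted genes were not analysed here. One WT caput tissue library and the 6 caput fluid libraries carry a section label of cauda but a title that names the caput, and they were grouped by title.

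U1, U2, U5 and U6 RNAs are the RNA cores of the major spliceosome, which removes nearly all introns: U1 pairs with the 5′ splice site, U2 with the branch point, U5 holds the exon ends and U6 forms the catalytic centre. U11 and U12 take the places of U1 and U2 in the minor spliceosome, which removes a rare class of introns. U7 guides the 3′ end processing of replication-dependent histone mRNAs, and U3, with the small nucleolar RNA annotated as Rnu73b, belongs to the nucleolus, where U3 is needed to process the precursor of 18S rRNA. The U1, U2, U5, U7, U11 and U12 RNAs are bound by a ring of Sm or Sm-like proteins on a short uridine-rich site. Small RNA libraries favour short RNAs, so a level here says how many such reads were counted and not how much intact RNA was present.

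The U1 sequences are shown first because how far the 3 U1 RNAs can be told apart rests on a few bases. Sequences are GENCODE reference transcripts of the mm10 build, 5′ to 3′, and capitals mark bases of Rnu1a1 that differ from either Rnu1b RNA, and bases of Rnu1b1 and Rnu1b6 that differ from Rnu1a1.
Rnu1a1: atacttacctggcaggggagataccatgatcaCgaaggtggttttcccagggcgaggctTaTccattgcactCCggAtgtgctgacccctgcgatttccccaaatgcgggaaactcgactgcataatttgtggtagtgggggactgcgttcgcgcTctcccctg
Rnu1b1: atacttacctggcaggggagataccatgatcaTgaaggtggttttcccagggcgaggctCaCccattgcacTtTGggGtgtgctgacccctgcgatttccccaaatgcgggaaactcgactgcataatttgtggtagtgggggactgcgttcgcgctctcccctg
Rnu1b6: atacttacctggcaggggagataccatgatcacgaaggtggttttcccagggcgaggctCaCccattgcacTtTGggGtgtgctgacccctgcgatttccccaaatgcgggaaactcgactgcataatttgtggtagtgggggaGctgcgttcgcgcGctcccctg
Rnu1a1 (chr11:87422867-87423030, plus strand, in an intron of Tex14 on the same strand) has 164 bases, Rnu1b1 (chr3:96359953-96360117, minus strand, overlapping no other annotated gene) 165 and Rnu1b6 (chr3:96460024-96460189, minus strand, in an intron of Gm10685 on the other strand) 166. Rnu1a1 matched Rnu1b1 at 95.8% of 165 aligned positions, and 67.1% of its windows of 16 bases, the shortest read kept by the authors, also occurred in Rnu1b1. Rnu1b6 differed from Rnu1b1 by the substitutions T33C and T157G, counted from 1 at the 5′ end of Rnu1b1, and by 1 gap, and 75.3% of the 16-base windows of Rnu1b1 also occurred in it. Because the authors let a read add to every feature it fitted best, reads from these shared windows add to each RNA that holds them, and differences between them are those of the reads that cross the marked bases. Rnu1b2 (chr3:96374021-96374185) is identical to Rnu1b1, and the largest difference between their counts was 0.232%, in a fluid library, with 0.0338% in tissue and 0.00158% for sperm. The 4 Rnu3b genes on chromosome 11 are likewise identical in sequence, and their 8 rows differed by at most 0.0996%, 0.327% and 0.0435%. Rnu3a, on chromosome 10, matched Rnu3b1 at only 85.4% of positions, and 31.7% of its 16-base windows also occurred in Rnu3b1.

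The next sequences are those of the minor spliceosomal Rnu11 and Rnu12, whose levels changed along the epididymis. Capitals mark a match to a letter string of the Sm-site kind on the transcript strand.
Rnu11: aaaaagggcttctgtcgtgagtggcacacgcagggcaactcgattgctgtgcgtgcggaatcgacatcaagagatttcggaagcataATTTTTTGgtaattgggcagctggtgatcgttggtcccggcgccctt
Rnu12: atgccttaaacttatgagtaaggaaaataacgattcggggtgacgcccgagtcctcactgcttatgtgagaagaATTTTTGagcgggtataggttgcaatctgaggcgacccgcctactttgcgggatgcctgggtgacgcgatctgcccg
Rnu11 (chr4:132270080-132270213, minus strand, opposite an exon of the lincRNA Gm28872) and Rnu12 (chr15:83149644-83149794, plus strand, overlapping no other annotated gene) have 134 and 151 bases. Rnu11 and Rnu12 share no window of 16 bases. The strings searched were 4: ATTTTTG, which is in Rnu12 and, at position 99, in Rnu2-10, ATTTTTTG, which is in Rnu11 and, at position 88, in Rnu5g, ATTTGTG, which is in the U1 RNAs, and ATTTGTC, which is in Rnu7. Any of the 4 strings occurred in 245 of 1383 annotated mouse snRNA transcripts (17.7%), and alone they occurred in 3.33%, 1.37%, 12.9% and 0.217%. A match is a description of the letters only. Reads of Rnu7 (chr6:124741225-124741286, minus strand) may also come from Grcc10, which has an exon there on the same strand, and Rnu73b (chr3:86140618-86140688, minus strand) lies in an intron of Rps3a1 on the same strand.

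Tissue libraries held 30142156 to 249732714 counts, fluid libraries 1948718 to 12320922 and sperm libraries 1134840 to 62128314. Named U RNA rows held 1.29 to 2.25% of the counts of a tissue library (median 1.84%), 0.338 to 0.872% of a fluid library (0.533%) and 0.367 to 0.941% of a sperm library (0.817%). These shares sum all rows, so reads on rows of one sequence are added more than once. With 1 entry per distinct RNA the shares were 0.806 to 1.56% in tissue (median 1.31%), 0.266 to 0.695% in fluid (0.427%) and 0.238 to 0.711% in sperm (0.553%), so that summing rows raised them by a factor of 1.41 to 1.67, 1.19 to 1.32 and 1.31 to 1.58. Unnamed snRNA copies held more than the named rows: 796 rows held 5.55 to 10.7% of a tissue library, 285 rows 2.43 to 6.18% of a fluid library and 527 rows 2.23 to 6.81% of a sperm library, and a read can be counted on a named row and on copies. In no segment and not in sperm did the share on named rows differ between KO and WT beyond the spread of the libraries (2-sided exact permutation tests, p from 0.3 to 0.9 in 7 comparisons, of which 3 against 3 libraries cannot go below 0.1, and p from 0.2 to 1.0 with 1 entry per distinct RNA). The 5 tissue libraries with replicate number 3 stood apart: Rnu2-10 was at 2127 to 3943 CPM (counts relative to the library's TMM-scaled total) in them against 5141 to 19222 in the other 12 tissue libraries, Rnu6 at 0.665 to 0.866 against 2.74 to 10.1, and Rnu3b1 at 370 to 545 against 566 to 2323. The pseudogene copy Rnu6-ps2 went the other way, at 0.134 to 0.213 CPM against 0 to 0.119. In these 4 of 13 RNAs no library of one kind reached the range of the other. The share of all RNAs apart in this sense was not counted, so the 4 are not shown to be unusual. KO corpus tissue had no library with number 3. In sperm, WT replicate 1 and KO replicates 1 to 3 held 42764979 to 62128314 counts and the other 4 libraries 1134840 to 3618739.

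The named U RNAs differed widely in level per length in each material. In tissue, Rnu2-10 was highest with a median of 4418 CPM per 100 nt (range 1114 to 10064 over 17 libraries), followed by Rnu1a1 (1062), Rnu5g (529), Rnu1b1 (387), Rnu3b1 (320) and Rnu1b6 (195). The minor spliceosomal RNAs stood below these, Rnu12 at 93.5 and Rnu11 at 12.3 CPM per 100 nt, next to Rnu3a (72.9) and Rnu73b (14.3). Rnu6 (3.29), Rnu7 (2.19) and Rnu6-ps2 (0.0414) were lowest. The low U6 value is that of the named Rnu6 entry only, and U6 also has many unnamed copies. In this order the ranges of neighbours overlapped, as those of Rnu2-10 (from 1114) and Rnu1a1 (up to 2833) did, other than those of Rnu3a (from 54.9) and Rnu73b (up to 36.7) and of Rnu7 (from 0.957) and Rnu6-ps2 (up to 0.199).

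In fluid, the order began with a U1 RNA instead: Rnu1a1 had a median of 1006 CPM per 100 nt over 18 libraries (633 to 2038), Rnu2-10 601 (344 to 1169), Rnu1b1 340 and Rnu1b6 298. Rnu12 (63.5) stood above Rnu5g (36.4), Rnu3b1 (24.6) and Rnu3a (13.5), and Rnu7 (7.82) above Rnu11 (4.0). In sperm, Rnu2-10 (922, 409 to 1354 over 8 libraries) and Rnu1a1 (886, 352 to 1165) had nearly the same level per length, with Rnu1b6 (587) and Rnu1b1 (499) next, then Rnu5g (187), Rnu3b1 (75.3), Rnu3a (32.7), Rnu12 (32.0), Rnu73b (14.9), Rnu11 (13.7) and Rnu7 (2.59). The ranges of each of these neighbours in fluid and in sperm overlapped, other than those of Rnu1b6 (from 200.4) and Rnu12 (up to 137) in fluid. Rnu73b was close to absent in fluid, with 0 to 7 counts in a library and none in 8 of 18 libraries, against up to 4516 counts in tissue and 967 in sperm, where every library had some. A count of 0 allows up to 3 counts, which in the fluid libraries correspond to 0.243 to 1.54 CPM. Rnu6-ps2, a copy named as a pseudogene, had 0 to 52 counts in a tissue library and 0 to 6 in sperm. Tissue was prepared by another library method than fluid and sperm, so levels were not tested between tissue and the other 2 materials.

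**Figure D1:**
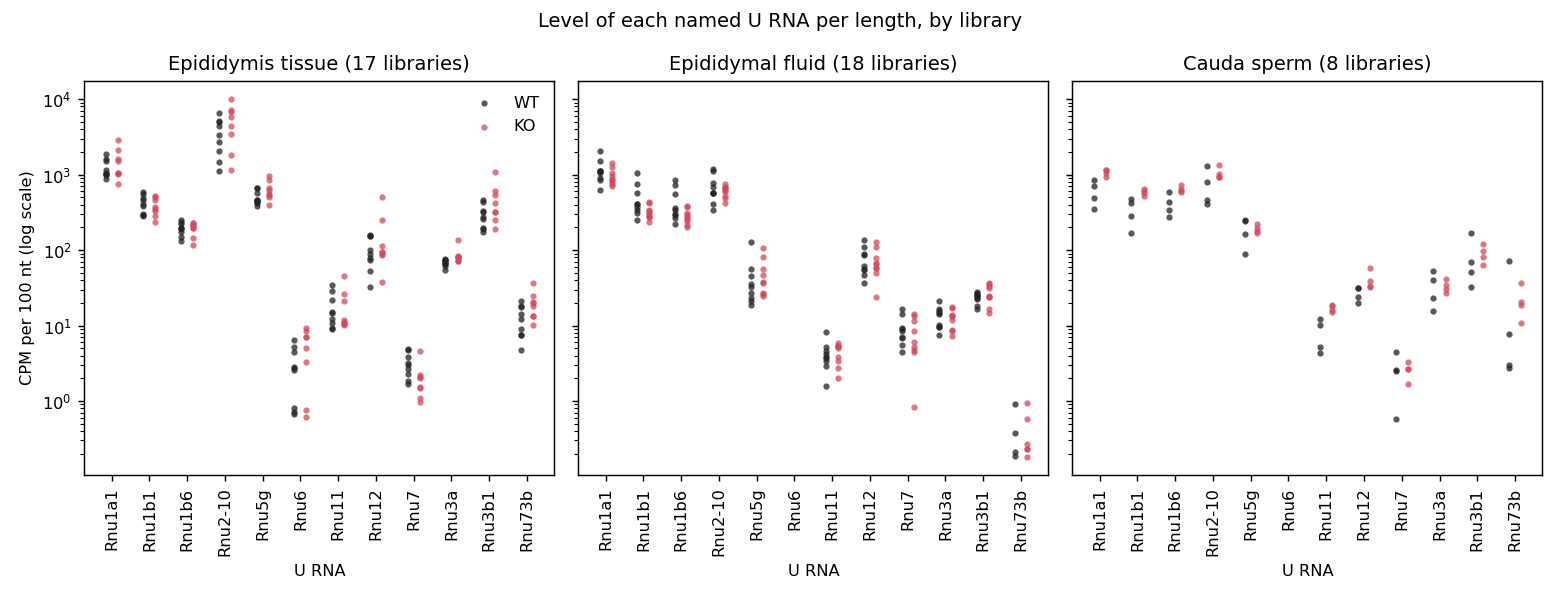
Level of each named U RNA in every library, as TMM-scaled CPM per 100 nt on a log axis, for tissue, fluid and sperm, with WT in black and KO in red. Points at 0 cannot be drawn on this axis (Rnu73b in 8 fluid libraries), Rnu6-ps2 is left out, and Rnu2-10 leads in tissue with a median of 4418 where Rnu1a1 leads in fluid with 1006.

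The balance among U1 RNAs also differed by material. The ratio of Rnu1b6 to Rnu1b1 counts, taken within a library and so free of scaling, was 0.279 to 0.779 in the 17 tissue libraries, 0.701 to 0.968 in the 18 fluid libraries and 0.991 to 1.65 in the 8 sperm libraries. Every sperm library was above every fluid library. The log2 ratio was -0.30 ± 0.15 (SD, n = 3) in WT cauda fluid and 0.32 ± 0.29 (n = 4) in WT sperm, both OTTR-seq, a difference of 0.63. A 2-sided exact permutation test gave p = 0.0571, the smallest that 4 against 3 libraries allow, and 0.517 after adjustment over 31 tests of shares and ratios. In KO the same difference was 0.30 (exact permutation p = 0.0571, adjusted p = 0.3 over 21 tests added later). U3, a nucleolar RNA, was also higher against Rnu1b1 in sperm: the log2 ratio of the U3 to the Rnu1b1 entry was -1.85 ± 1.09 in WT sperm and -4.34 ± 1.06 in WT cauda fluid, and -2.35 ± 0.45 in KO sperm and -3.97 ± 0.73 in KO cauda fluid (exact permutation p = 0.0571 each). None of the 31 planned or the 21 added tests passed after adjustment.

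**Figure D2:**
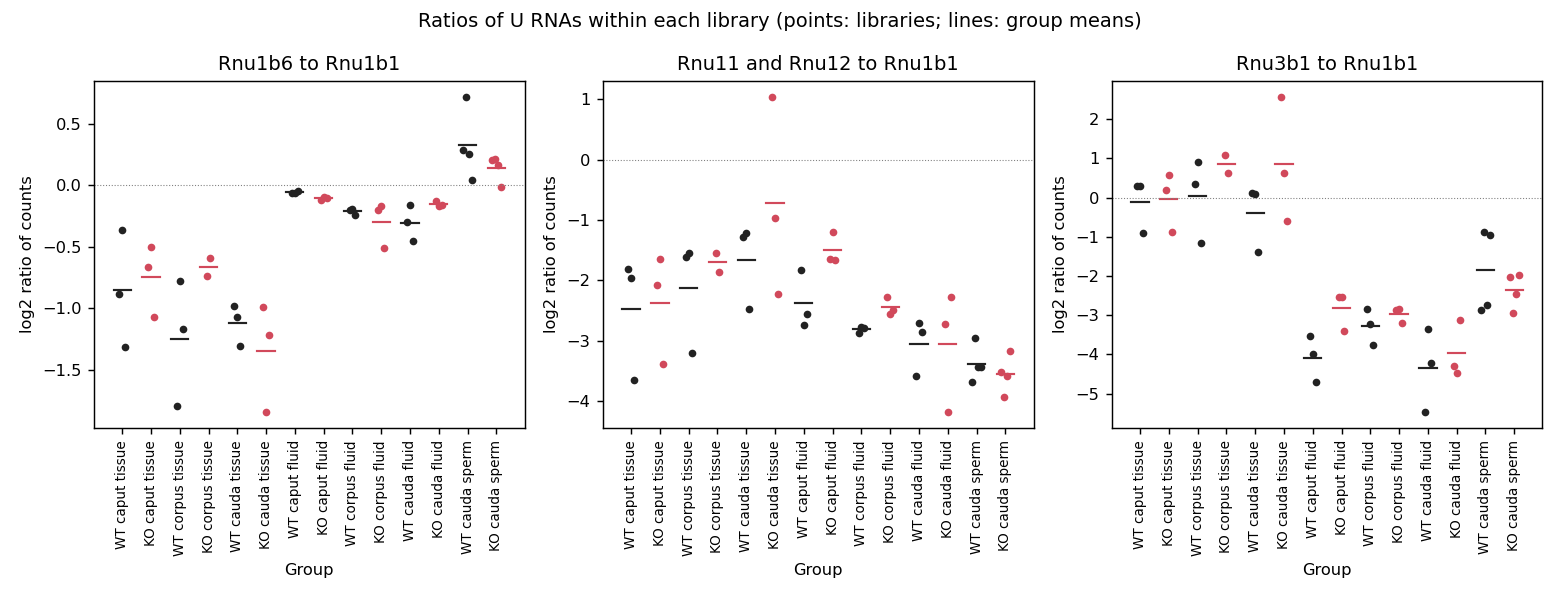
Log2 ratios of counts within each library for Rnu1b6 to Rnu1b1, the minor spliceosomal Rnu11 and Rnu12 to Rnu1b1, and Rnu3b1 to Rnu1b1, with points for libraries and lines for group means (WT black, KO red). For Rnu1b6 to Rnu1b1 the sperm libraries lie at the top and the tissue group means at the bottom, with overlap between tissue and fluid libraries. For Rnu3b1 to Rnu1b1 the fluid group means lie lowest, with overlap between fluid and sperm libraries.

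The first comparison asked whether the named U RNAs differ between KO and WT. None of the distinct members was called, meaning an adjusted p under 0.05 (edgeR's quasi-likelihood test, Benjamini-Hochberg over all RNAs tested) and an absolute log2 fold change above 1, in any of the 7 KO comparisons. Over all RNAs, 0% were called in caput and in corpus tissue, 0.86% in cauda tissue, 0% in caput and in cauda fluid, 19.7% in corpus fluid and 0% in sperm. Corpus fluid thus had many called RNAs and no called U RNA, 0 of 10 against that background. At an unadjusted p under 0.05 the counts of distinct members were 0 of 13 in caput, 1 of 13 in corpus and 5 of 13 in cauda tissue, 2 of 10 in caput, 1 of 10 in corpus and 1 of 10 in cauda fluid, and 2 of 11 in sperm. Over all RNAs the counts in the same order were 34, 279 and 527 of 3488, 214, 684 and 188 of 2023, and 434 of 2480. DESeq2 called 2 members in cauda tissue and none in the other 6 comparisons. Of all RNAs, DESeq2 called 0, 24 and 175 of 4735 in caput, corpus and cauda tissue. It called 9, 465 and 42 of 3005 in caput, corpus and cauda fluid, and 138 of 4101 in sperm.

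In caput and corpus tissue the KO and WT levels of the major spliceosomal RNAs were close. Rnu1a1 was at 1628, 1684 and 1446 CPM in WT caput and at 1742, 1673 and 1216 in KO caput, log2 fold change -0.04 ± 0.35 (SE). The median log2 fold change of the 13 members was 0.20 in caput and 0.16 in corpus tissue, where the medians of all RNAs were 0.04 and -0.04. Rnu2-10 was at 6343, 5141 and 2127 CPM in WT caput and 6639, 8510 and 2215 in KO caput, and at 12400, 9821 and 2788 in WT corpus and 12988 and 10925 in KO corpus. Rnu6 was at 2.74, 3.02 and 0.866 CPM in WT caput and 3.52, 5.45 and 0.665 in KO caput, and at 5.52, 6.92 and 0.775 in WT corpus and 7.61 and 7.5 in KO corpus. In both RNAs the library of number 3 was the low one of each group, and in the corpus only WT has such a library. Rnu5g was at 670, 528 and 531 CPM in WT caput, 614, 637 and 577 in KO caput and, with number 3 again low, 761, 779 and 446 in WT corpus. KO and WT libraries did not overlap for 1 of 13 members in caput tissue (Rnu3a, higher in KO), with 7.14% of all RNAs apart in the same sense, and for 4 of 13 in corpus tissue, where 27% of all RNAs were apart. In the corpus, Rnu6 and Rnu3a were higher and Rnu11 and Rnu7 lower in KO. Rnu11 was at 20.3, 16.5 and 19.5 CPM in WT corpus and at 13.9 and 16 in KO (-0.33 ± 0.32, adjusted p = 0.87), and Rnu7 at 1.86, 1.39 and 2.97 in WT and at 0.962 and 0.919 in KO (-1.15 ± 0.53, adjusted p = 0.59). Several marker miRNAs of cell types lay apart in the same comparison. The summed smooth muscle miRNAs (2 of 2 listed) were at 44.2 to 87.5 CPM in WT and 24.3 to 29.5 in KO corpus, both with an unadjusted p under 0.05 (as had 279 of all 3488 RNAs) and neither called, and the 5 epithelial miRNAs at 16.3 to 25.9 in WT and 10.6 ± 0.14 (SD, n = 2) in KO. Those of red blood cells (0.0443 to 0.108 and 0.0111 to 0.0144) and immune cells (0.125 to 0.151 and 0.0664 to 0.0718) were low and also apart, and their part in the result was not tested.

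Cauda tissue held the largest KO differences among the tissue segments, with a median of 0.56 over the 13 members beside 0.12 over all RNAs (-0.04 beside -0.42 under total counts alone). Rnu73b was at 6.44, 5.38 and 10.1 CPM in WT cauda and at 14, 26.1 and 17.6 in KO, so the groups did not overlap. Its log2 fold change was 1.39 ± 0.45 with an adjusted p of 0.16. Rnu7, the histone mRNA processing RNA, went the other way, at 1.66, 1.95 and 3.02 CPM in WT and 0.593, 1.36 and 0.678 in KO, again without overlap (-1.34 ± 0.48, adjusted p = 0.19). These Rnu7 values rest on 50 to 695 counts in WT and 9 to 48 in KO. Only these 2 of 13 members were apart, with 17% of all RNAs apart. Rnu3b1, the leading U3 entry, was at 692, 710 and 370 CPM in WT and at 2323, 1329 and 545 in KO (1.24 ± 0.46, adjusted p = 0.19), where the KO library of number 3 lay within the WT range. Rnu2-10 was at 9464, 8438 and 3943 CPM in WT and 19222, 13846 and 3435 in KO (0.74 ± 0.65, adjusted p = 0.62), with the KO library of number 3 below the WT range. Rnu6 was at 2.95, 4.73 and 0.721 in WT and 9.03, 10.1 and 0.819 in KO (1.25 ± 0.94, adjusted p = 0.55). Of the U1 RNAs, Rnu1a1 had a value above 0 and Rnu1b1 and Rnu1b6 had values below 0. Under total counts alone all of these U1 RNAs were below 0. Rnu1b1 was at 638, 667 and 959 CPM in WT and 390, 854 and 826 in KO, and Rnu1b6 at 322, 317 and 388 against 197, 238 and 354. The minor Rnu12 (1.09 ± 0.54, adjusted p = 0.36), Rnu5g (0.76 ± 0.31, 0.25) and Rnu3a (0.56 ± 0.26, 0.32) had positive values, whereas Rnu1b1 (-0.13 ± 0.35), Rnu1b6 (-0.38 ± 0.29) and Rnu11 (0.13 ± 0.29) were close to 0.

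Libraries of the same replicate number deviated together in cauda tissue, and with that number as a block 10 of the 22 rows were called, where 8.6% of all RNAs were called. The 10 rows were Rnu73b (1.38 ± 0.32, adjusted p = 0.0102), the 8 Rnu3b rows, which count as 1 RNA (Rnu3b1 1.07 ± 0.25, adjusted p = 0.0102), and Rnu7 (-1.42 ± 0.35, adjusted p = 0.0141). DESeq2 without the block called Rnu7 (-1.48, adjusted p = 0.0297) and Rnu73b (1.26, adjusted p = 0.0451), where it called 3.7% of all RNAs, and DESeq2 with the block called the same pair (-1.53, adjusted p = 0.000407, and 1.28, adjusted p = 0.000371). Under the 4 alternatives that changed only the scaling or the filter, none of the 3 was called. Without the libraries of number 3, with 2 libraries a group left, 12 rows were called, where 8.56% of all RNAs were called. The 12 were Rnu73b at 1.73, Rnu3b1 at 1.40, Rnu12 and Rnu6 at 1.30, Rnu5g at 1.07 and the remaining Rnu3b rows, and Rnu7 was not.

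**Figure D3:**
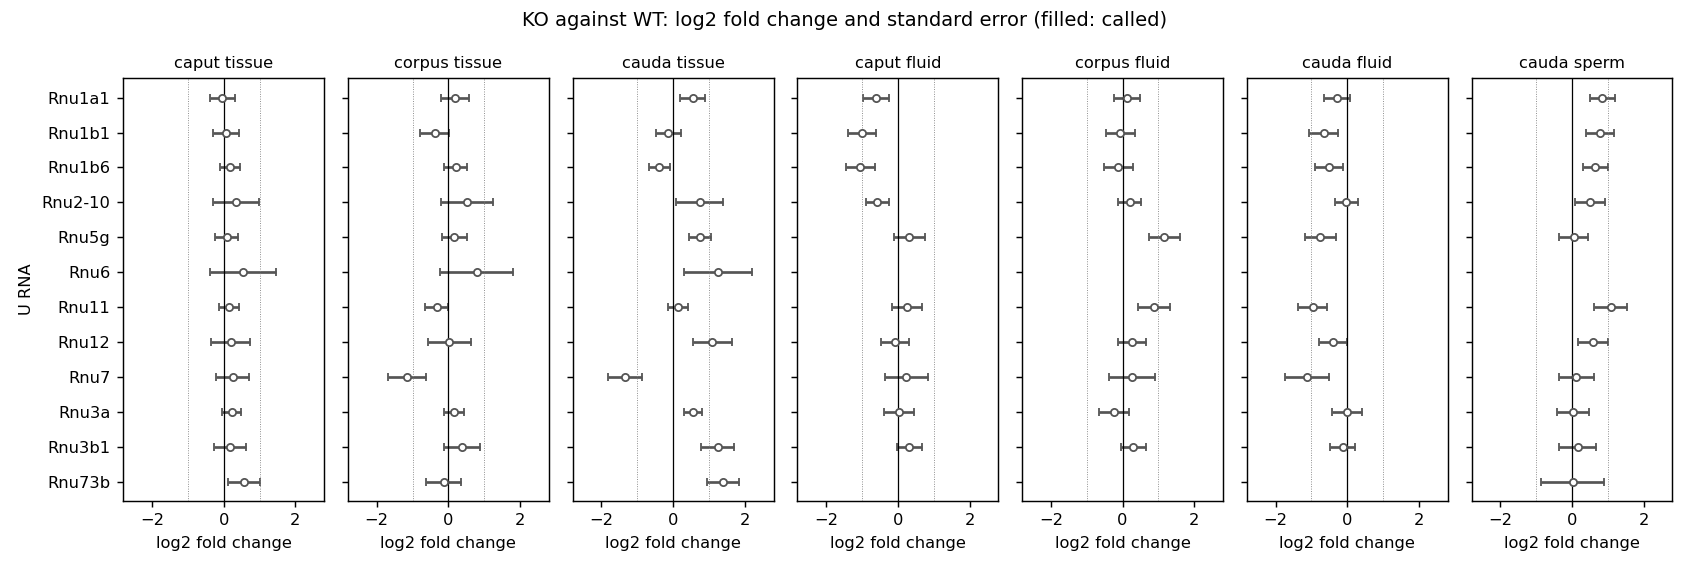
Log2 fold change of KO against WT with its standard error (edgeR) for each named U RNA in the 7 comparisons, where filled points would mark called RNAs and dotted lines mark a log2 fold change of 1 in either direction. No point is filled, in cauda tissue Rnu73b (1.39) and Rnu7 (-1.34) lie farthest apart, and in sperm all 11 values lie above 0, of which 5 turn negative under DESeq2 size factors.

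In caput fluid, all 4 leading spliceosomal RNAs were lower in TMM-scaled CPM in every KO library than in every WT library. For Rnu1a1 and Rnu2-10 the separation rests on the TMM factors. Without these factors KO replicates 1 and 2 lay above WT replicate 1 in both RNAs. Rnu1b1 was at 617, 951 and 1249 CPM in WT and 392, 459 and 558 in KO (-1.0 ± 0.40, adjusted p = 0.31), and Rnu1b6 at 591, 908 and 1208 against 360 to 520 (-1.05 ± 0.40, adjusted p = 0.29). Rnu1a1 was at 1476, 1817 and 2496 CPM against 1217, 1402 and 1176 (-0.61 ± 0.36, adjusted p = 0.62) and Rnu2-10 at 1462, 2232 and 2118 against 1141, 1423 and 1322 (-0.58 ± 0.32, adjusted p = 0.60). Rnu5g, at 26.7, 21.7 and 24.6 CPM in WT and 28.5, 30.8 and 31.4 in KO, was the only member higher in all KO libraries. With it, 5 of 10 members were apart in TMM-scaled CPM, beside 26% of all RNAs. The U1 RNAs among the 5 share reads, so they are not separate observations. Rnu12, at 166, 136 and 206 CPM in WT and 118, 194 and 168 in KO, overlapped (-0.08 ± 0.39).

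Within caput fluid libraries the summed minor spliceosomal RNAs were higher against Rnu1b1, but not against Rnu1a1, in every KO library than in every WT library. The sum is mostly Rnu12, since the ratio of Rnu11 to Rnu12 was 0.0250 to 0.0420 in WT and 0.0355 to 0.0610 in KO. Rnu11 alone was apart against Rnu1a1, at a log2 ratio of -8.92 to -7.72 in WT and -7.67 to -7.34 in KO. That ratio of Rnu11 was not tested. The log2 ratio of Rnu11 and Rnu12 to Rnu1b1 was -2.38 ± 0.48 (SD, n = 3) in WT and -1.50 ± 0.27 (n = 3) in KO, and that of U3 to Rnu1b1 -4.08 ± 0.59 and -2.82 ± 0.50. Both differences, 0.88 and 1.26, had the smallest p that 3 against 3 allow (p = 0.1 in 2-sided exact permutation tests, 0.517 after adjustment). With Rnu1a1 as the denominator the minor ratio was -3.68 to -3.09 in WT and -3.28 to -2.74 in KO caput fluid, with overlap (difference 0.50, exact permutation p = 0.2), whereas that of U3 stayed apart, -5.70 to -4.80 against -4.47 to -4.14 (difference 0.88, exact permutation p = 0.1). The minor ratio to Rnu1b1 was also higher in all KO corpus fluid libraries (-2.45 ± 0.15 against -2.81 ± 0.05, exact permutation p = 0.1), but not in cauda fluid (-3.06 ± 0.99 against -3.05 ± 0.47, exact permutation p = 0.9). To Rnu1a1 it overlapped in corpus fluid, -4.60 to -4.19 in WT and -4.47 to -3.98 in KO. The summed epithelial miRNAs (5 of 5 markers listed) did not overlap between genotypes in caput and corpus fluid, at 103 to 182 CPM in WT and 241 to 298 in KO caput fluid, and 27.1 to 62.6 in WT and 87.5 to 134 in KO corpus fluid. Those of immune cells (4 listed) were apart as well, at 8.38 to 11.6 CPM in WT and 13.8 to 20.01 in KO caput fluid. Their part in the result was not tested.

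In corpus fluid, Rnu5g was at 37.5, 31.5 and 53.2 CPM in WT and at 54.1, 94.5 and 125 in KO (1.17 ± 0.44, adjusted p = 0.062), and Rnu11 at 2.09, 3.86 and 5.03 against 7.22, 5.13 and 7.87 (0.88 ± 0.44, adjusted p = 0.16). Both were higher in every KO library, 2 of 10 members beside 36.1% of all RNAs. The summed immune cell miRNAs did not overlap there, at 14.2 to 19.8 CPM in WT and 20.5 to 80.8 in KO, and 2 of the 3 tested were called higher in KO. The germ cell miRNAs, none of them called, were at 3.58 to 9.06 CPM in WT and 12.8 to 15.4 in KO, also apart as the epithelial ones were, and their part in the result was not tested. In cauda fluid no member of 10 was apart, with 9.94% of all RNAs apart, and all 10 log2 fold changes were below 0, with a median of -0.45 beside 0.09 over all RNAs. All 10 were also below 0 under the other scalings but for total counts alone, where 6 were. The lowest were Rnu7 (-1.12 ± 0.60, adjusted p = 0.54), at 8.83, 5.63 and 10.4 CPM in WT and 3.79, 0.516 and 7.16 in KO, and Rnu11 (-0.97 ± 0.42, adjusted p = 0.47). The change of the KO effect from corpus to cauda fluid was -1.91 ± 0.61 for Rnu5g (interaction term, adjusted p = 0.058) and -1.85 ± 0.61 for Rnu11 (adjusted p = 0.065), and neither passed, where 7.37% of all RNAs did. No member passed in the interaction of corpus with caput fluid (1.83% of all RNAs), in that of cauda with caput fluid (0%) or in the 3 interactions in tissue (0% each). Rnu11 had 14 to 119 counts in a fluid library, so only large differences could be detected for it there.

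In sperm, none of the 11 members tested was called. All 11 log2 fold changes were above 0, with a median of 0.50 beside -0.00 over all RNAs, but under DESeq2 size factors or total counts 6 were above 0 and 5 below, with a median of 0.30 or 0.20. Rnu11 was at 13.8, 5.85, 6.87 and 16.3 CPM in WT sperm and at 24.3, 20.5, 21.3 and 25.4 in KO (1.08 ± 0.45, adjusted p = 0.23). Rnu1a1 was at 1374, 578, 810 and 1151 against 1532, 1890, 1708 and 1910 (0.85 ± 0.36, adjusted p = 0.23), and Rnu1b1 at 791, 280, 468 and 703 against 854, 1050, 950 and 1004 (0.78 ± 0.38, adjusted p = 0.32). In these 3 RNAs, in Rnu1b6 and in Rnu12 every KO library lay above every WT library in TMM-scaled CPM, 5 of 11 members beside 9.4% of all RNAs. The U1 RNAs among the 5 share reads, so they are not separate observations. The separation rests on the TMM factors, from 0.637 in KO replicate 1 to 1.67 in WT replicate 3. Without these factors KO replicate 1 lay below WT replicate 1 in all 5. The unscaled share of counts on named rows overlapped, at 0.367 to 0.831% in WT and 0.518 to 0.941% in KO. For Rnu12 the margin was narrow, 47.5, 30, 36 and 48.1 CPM against 50.3, 48.4, 58 and 86.1. Rnu2-10 overlapped, at 1522, 781, 881 and 2492 CPM against 1762, 1760, 1938 and 2586 (0.50 ± 0.41, adjusted p = 0.59), and so did Rnu5g, at 279, 288, 187 and 103 against 255, 197, 206 and 228. Rnu5g (0.05 ± 0.40), Rnu3a (0.03 ± 0.46) and Rnu3b1 (0.15 ± 0.51) were close to 0.

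Depth moved with genotype in sperm, since 3 of 4 KO libraries but 1 of 4 WT libraries were deep. With depth class as a term, Rnu11 had a log2 fold change of 1.02 and Rnu1a1 of 0.74 (adjusted p = 0.47 each), and with every library thinned to 1134840 counts, 0.82 and 0.64. Scaled by total counts only, which set the median of all RNAs to -0.31, they were 0.74 and 0.49. WT replicate 4 decided the calls over all RNAs and over the members. It held 51 CPM of Rnu73b where the other WT libraries held 5.52, 1.95 and 2.12, and without it Rnu73b (2.11 ± 0.53, adjusted p = 0.0189) and Rnu11 (1.36 ± 0.42, adjusted p = 0.0476) were called higher in KO, 2 of the members where 11.5% of all RNAs were called (119 higher and 207 lower) and the median of all RNAs was 0.26. The summed epithelial miRNAs were at 6.24 to 23.9 CPM in WT sperm and 16.3 to 23.3 in KO, and the germ cell miRNAs at 17.9 to 47.0 and 30.2 to 43.2, with overlap in both, and the smooth muscle, red blood cell and immune cell miRNAs overlapped too.

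The next question was how the named U RNAs vary along the epididymis. Comparisons of one genotype share its caput libraries. Rnu11 was the member that changed in tissue of both genotypes: it was at 12.1, 12.4 and 14.4 CPM in WT caput, 20.3, 16.5 and 19.5 in WT corpus and 29, 46.1 and 38.3 in WT cauda, and at 13.6, 14.4 and 15.1 in KO caput, 13.9 and 16 in KO corpus and 28.7, 60.1 and 35.4 in KO cauda. Every cauda library lay above every caput and corpus library. Rnu11 rose by a log2 fold change of 1.54 ± 0.29 from caput to cauda in WT (adjusted p = 0.00076) and by 1.53 ± 0.29 in KO (adjusted p = 0.0009), and the difference of the 2 changes was -0.02 ± 0.40. From caput to corpus in WT it had a value of 0.53 ± 0.29 (adjusted p = 0.29). It was 1 of 13 members called in WT cauda against caput, where 23% of all RNAs were called, and 1 of 3 called in KO, where 25.7% were, and no member was called in WT corpus against caput, where 11.8% of all RNAs were called. In bulk samples, fewer cells of a type and less RNA per cell cannot be told apart. Both smooth muscle miRNAs, Mir143 and Mir145a, were called higher in the cauda of both genotypes, and their summed level went from 20.6 to 40.3 CPM in WT caput to 108 to 215 in WT cauda and from 23.5 to 39.8 in KO caput to 107 to 140 in KO cauda. The 5 epithelial miRNAs were at 7.57 to 22.5 CPM in WT caput and 8.67 to 15.7 in WT cauda, none called, and at 11.4 to 22.4 in KO caput and 7.79 to 13.1 in KO cauda, where all 5 values were below 0 with a median log2 fold change of -0.90 and 1 was called lower. The 1 red blood cell miRNA tested was called higher in the cauda of both genotypes, with a summed level of at most 0.24 CPM for that list. Their part in the result was not tested.

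The Rnu11 change was called with each of the 12 libraries left out in turn (1.51 to 1.72 in WT, 1.18 to 1.61 in KO) and under DESeq2 (1.48 and 1.43). It was lost under total counts alone, at 1.05 in WT (adjusted p = 0.138) and 0.67 in KO (0.286), a scaling under which the median of all RNAs was -0.46 and -0.73 and the calls over all RNAs in KO went from 598 higher and 300 lower to 391 higher and 641 lower (29.6% of all RNAs). It was also lost when tRFs, tRNAs and rRNA were left out of the TMM scaling, at 0.999 in WT (adjusted p = 0.0337), just under the fold threshold of 1, and at 0.86 in KO (adjusted p = 0.0616). Against U1 in the same library, which needs no scaling, the log2 ratio of Rnu11 to Rnu1a1 was -7.09 to -6.65 in WT caput and -6.06 to -5.50 in WT cauda, without overlap, and -7.00 to -6.33 in KO caput and -6.92 to -5.58 in KO cauda, with overlap. Rnu1a1 was itself called higher in KO cauda than KO caput tissue (1.09). The log2 ratio of Rnu12 to Rnu1a1 did not overlap in WT, at -4.88 to -3.78 in caput and -3.71 to -3.00 in cauda. Nor did it in KO, at -4.43 to -3.65 and -3.62 to -2.17.

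Rnu12, the partner of U11 in the minor spliceosome, rose in KO tissue from 129, 133 and 56.5 CPM in caput to 774, 378 and 141.2 in cauda (2.02 ± 0.56, adjusted p = 0.012). In WT it was at 119, 111 and 49.2 in caput and 233, 241 and 133 in cauda (1.12 ± 0.54, adjusted p = 0.16). With the replicate number as a block both changes were called, 1.81 ± 0.29 in KO (adjusted p = 3.16e-05) and 1.19 ± 0.28 in WT (adjusted p = 0.0023), beside 33.7% and 29.3% of all RNAs. The KO call was lost without KO caput replicate 3 or KO cauda replicate 1, and under total counts. The change of the KO effect between the segments was 0.90 ± 0.76 for Rnu12 (adjusted p = 0.97), so the larger value in KO was not shown to differ from that in WT.

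The third member called in KO cauda against caput tissue was Rnu1a1, at 1742, 1673 and 1216 CPM in caput and 3487, 4647 and 1696 in cauda (1.09 ± 0.35, adjusted p = 0.03). It was called under 1 of 7 other settings and with 1 of 6 libraries left out, and not with the block. With the block, 11 rows were called in this comparison, among them the 8 Rnu3b rows (Rnu3b1 1.04 ± 0.28, adjusted p = 0.005, where without the block it was 1.23 ± 0.46, adjusted p = 0.055) and Rnu7, which was lower (-1.02, adjusted p = 0.037). Rnu1b1 (0.19 ± 0.35) and Rnu1b6 (-0.43 ± 0.29) differed little from caput to cauda in KO tissue.

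**Figure D4:**
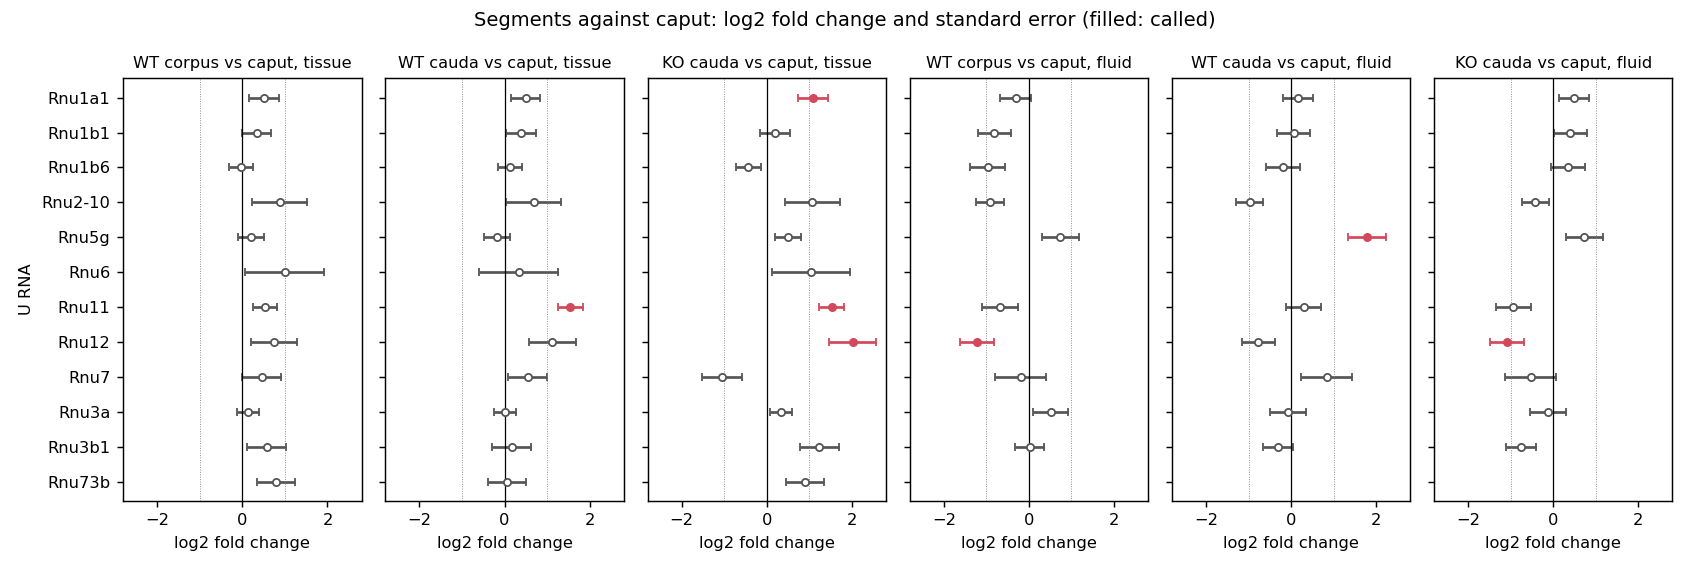
Log2 fold change against caput with its standard error (edgeR) for each named U RNA in corpus and cauda tissue and fluid, where red filled points mark called RNAs. Rnu11 is filled in cauda tissue of both genotypes (1.54 in WT, 1.53 in KO), Rnu5g in WT cauda fluid (1.79), and Rnu12 is higher in KO cauda tissue (2.02) but lower in WT corpus and KO cauda fluid.

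Fluid had its own pattern. Rnu5g, the U5 RNA, rose in WT from 26.7, 21.7 and 24.6 CPM in caput fluid to 147, 64.5 and 41.5 in cauda fluid (1.79 ± 0.44, adjusted p = 0.0056), 1 of 10 members called where 25.1% of all RNAs were. The 3 cauda libraries were spread widely, and without WT cauda fluid replicate 1 the change was 1.14 with an adjusted p of 0.0604. It was called under all 6 other settings (1.69 to 2.37). In KO, Rnu5g was at 28.5, 30.8 and 31.4 CPM in caput and 43.5, 43 and 64.2 in cauda fluid (0.73 ± 0.43, adjusted p = 0.21), and the interaction term was -1.06 ± 0.61 (adjusted p = 0.50). The summed germ cell miRNAs (3 of 3 listed, 2 called higher in each genotype) were higher in cauda fluid, going from 2.0 to 3.50 CPM in WT caput to 15.1 to 31.6 in WT cauda and from 3.20 to 4.33 in KO caput to 12.5 to 23 in KO cauda. In WT those of smooth muscle (76.8 to 139 in caput, 147 to 321 in cauda, none called), immune cells (8.38 to 11.6 and 22.3 to 43.3, 1 of 3 called) and red blood cells (23.8 to 25.02 and 40.8 to 62.1, none called) did not overlap either. Their part in the result was not tested.

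Rnu12 was lower down the tract in fluid. It was at 166, 136 and 206 CPM in WT caput and 54.9, 70.6 and 92.6 in WT corpus (-1.22 ± 0.40, adjusted p = 0.038), 1 of 10 members called where 17.7% of all RNAs were. In KO it went from 118, 194 and 168 CPM in caput to 102, 36 and 88.2 in cauda (-1.08 ± 0.40, adjusted p = 0.047), again 1 of 10 where 26% of all RNAs were called. In WT cauda fluid, at 131, 81.4 and 85.5 CPM, the value was -0.77 ± 0.39 (adjusted p = 0.15). Both calls were close to the threshold and were lost with any 1 of the 6 libraries left out. The summed epithelial miRNAs were lower without overlap in the same comparisons, from 103 to 182 CPM in WT caput to 27.1 to 62.6 in WT corpus fluid (2 of 5 called lower, all 5 with an unadjusted p under 0.05, as had 633 of all 2023 RNAs) and from 241 to 298 in KO caput to 76.4 to 182 in KO cauda fluid (1 of 5 called lower). In both, the germ cell miRNAs were higher without overlap, and the immune cell miRNAs were so in WT corpus fluid. Their part in the result was not tested. Rnu2-10, the U2 RNA, had lower values in WT cauda fluid (-0.97 ± 0.32, adjusted p = 0.03) and WT corpus fluid (-0.92 ± 0.32, adjusted p = 0.051) without reaching the fold required, and under total counts the cauda change was called (-1.02, adjusted p = 0.0358). It was at 1462, 2232 and 2118 CPM in WT caput, 656, 1322 and 1103 in corpus and 1081, 786 and 1091 in cauda fluid, and the corpus and cauda libraries all lay below the caput libraries. The U3 entry Rnu3b1 was at 35.9 to 59.5 CPM in the 9 WT fluid libraries, with no call in any segment.

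**Figure D5:**
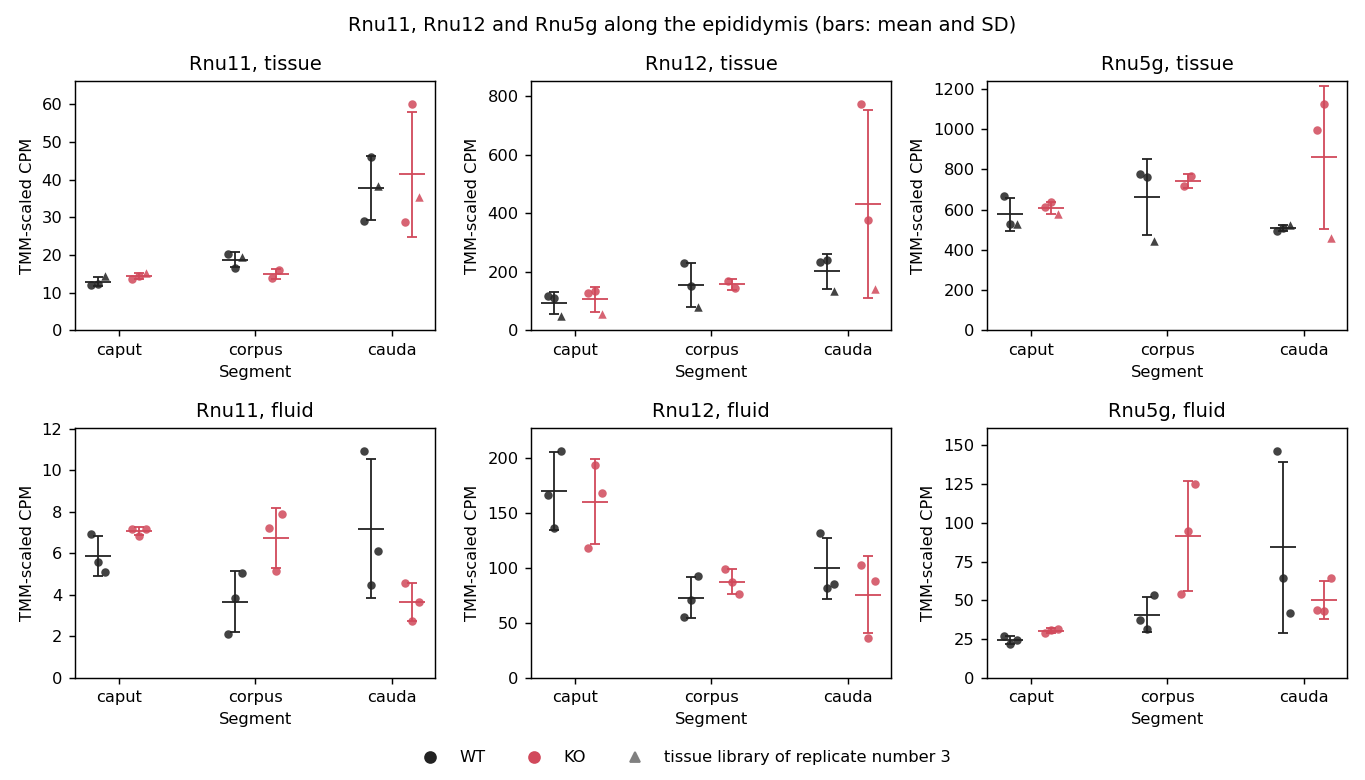
TMM-scaled CPM of Rnu11, Rnu12 and Rnu5g in each library of caput, corpus and cauda, in tissue above and fluid below (points: libraries, WT black and KO red, triangles: tissue libraries of replicate number 3, bars: mean and SD). Rnu11 in tissue is at 12.1 to 15.1 in all caput libraries and at 28.7 to 60.1 in all cauda libraries.

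Other RNAs of the same pathways were taken by name. The small Cajal body RNAs guide the modification of spliceosomal RNAs, and 9 were tested in tissue and 3 in fluid. In KO against WT cauda tissue none of the 9 was called by edgeR, 8 had positive values and their median was 1.14, beside 0.12 over all RNAs. Of the 9, 7 had an unadjusted p under 0.05, as had 527 of all 3488 RNAs. In KO cauda against caput tissue 1 of the 9, Scarna10, was called higher (1.36, adjusted p = 0.0318), where 25.7% of all RNAs were called. Of 9 snoRNAs that act with U3 in rRNA processing, none was called in KO against WT cauda tissue, where all values were positive with a median of 0.67, and 2 were called higher in KO cauda than KO caput tissue, Snora73a (1.32, adjusted p = 0.0235) and Snord14a (1.01, adjusted p = 0.0289), again beside 25.7% of all RNAs. Rn7sk, which holds a transcription elongation factor inactive, was called higher in KO cauda than KO caput tissue (1.71, adjusted p = 0.0138) and in KO than WT corpus fluid (1.48, adjusted p = 0.0201). It was called lower in cauda than caput fluid of WT (-1.64, adjusted p = 0.00848) and of KO (-1.89, adjusted p = 0.00372). Of the unnamed snRNA copies, 6 of 588 (1.02%) were called in KO against WT cauda tissue, all lower, beside 0.86% of all RNAs, of which 29 of 30 were lower.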

How the data were processed

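Per the labels and the study's methods, the authors trimmed reads with cutadapt (UMI-tools is also named in the submitters' processing notes, versions not given), mapped them with bowtie2 to mm10, mature tRNAs and rRNA through a modified tRAX pipeline, and deposited whole-number read counts per RNA, with reads of at least 16 nt for RNAs other than tRNAs and a read of equal matches counted on each. The counts carry no normalization. Each of the 3 tables (17 tissue, 18 fluid and 8 sperm libraries) was fitted on its own with edgeR 4.0.16 in R 4.3.3: filterByExpr by group (minimum count 10, total 15), TMM, 1 quasi-likelihood fit over all groups, Benjamini-Hochberg over all RNAs, with calls made where the adjusted p was below 0.05 and the log2 fold change beyond 1 in size. DESeq2 1.42.0 was an alternative, as were other scalings, filters and the replicate block. CPM values are TMM-scaled. The fits without replicate number 3, with depth class or with the block in DESeq2, the shares with 1 entry per distinct RNA and the ratios to Rnu1a1 were chosen after seeing the data. The fits were tested on simulated data. Shares and ratios within a library (0.5 added to counts for the minor and U3 ratios) were compared by 2-sided exact permutation tests. Sequences and positions are from the GENCODE mouse annotation of the same build.

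Every row whose name starts with Rnu is accounted for. Values in each library are given for members called in a comparison, for Rnu1b1, Rnu1b6 and the most counted entry of each type, and the others by range. Values in each library of Rnu3a, Rnu7 and Rnu73b, where given, follow the same rule or their lack of overlap, chosen after their values were seen. Members and lists were chosen with earlier results of these data known. Replicate numbers were taken to pair libraries where the deviations of every same-numbered pair correlated above 0.1. This held for KO against WT cauda tissue (0.281, 0.272, 0.596), WT cauda (0.306, 0.394, 0.633), WT corpus (0.312, 0.383, 0.555) and KO cauda (0.175, 0.228, 0.602) against caput tissue. In KO cauda against caput tissue number 1 (0.175) did not correlate best with its own number, so the pairing is weaker there. Tissue labels do not say whether libraries came from separate animals, so p-values measure the spread between libraries, which may be technical. Replicates differed by more than counting noise (chi-square per degree of freedom 32.6 to 3254), and counting limits cover counting error only. The sequence of 1 RNA is not reported here.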

Additional observations from a re-analysis of the deposited data

How the results depend on the processing

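Counts of called U RNA rows are given beside the calls over all RNAs, with the 8 Rnu3b rows counted singly. In KO against WT cauda tissue the count of 0 became 2 with DESeq2, 10 with the replicate block (paired by number), 2 with the block in DESeq2 and 12 with replicate numbers 1 and 2 only. Over all RNAs the calls went, in the same order, from 30 of 3488 to 175 of 4735, 300 of 3488, 326 of 4735 and 264 of 3083. In WT cauda against caput tissue the count of 1 became 0 under total counts or TMM without tRFs, tRNAs and rRNA, 2 with the block and 2 with numbers 1 and 2 only. Calls over all RNAs went from 803 of 3488 to 729, 1175 and 1021 of 3488 and 813 of 3083. In WT corpus against caput tissue the count of 0 became 3 with numbers 1 and 2 only, and 0 to 1 with 1 library left out (1 without WT caput tissue replicate 3). All RNAs called there went from 412 of 3488 to 716 of 3083, and to 402 of 3396 without WT caput tissue replicate 3. In KO cauda against caput tissue the count of 3 became 1 under total counts, where all 3 (Rnu11, Rnu12 and Rnu1a1) were lost and Rnu7 was called lower (-1.99), 11 with the block, 14 with numbers 1 and 2 only, and 1 to 11 with 1 library left out (1 without KO caput replicate 3 or KO cauda replicate 1, 11 without KO cauda replicate 3). Under TMM without tRFs, tRNAs and rRNA, Rnu11 and Rnu1a1 were lost there, Rnu12 stayed called (1.36) and Rnu7 was called lower (-1.78). Of all RNAs, 898 of 3488 were called in the main fit of this comparison. The number was 1032 under total counts, 1237 under that TMM, 1174 with the block and 1127 of 3083 with numbers 1 and 2 only. It was 695 of 3386 without KO caput replicate 3. Without KO cauda replicate 1 or 3 it was 834 of 3486 or 1081 of 3483. In WT cauda against caput fluid the count of 1 became 2 under total counts and 0 to 1 with 1 library left out (0 without WT cauda fluid replicate 1). Calls over all RNAs went from 508 to 392 of 2023 under total counts, and to 341 of 2131 without WT cauda fluid replicate 1. In WT corpus against caput fluid the count of 1 (Rnu12) became 0 under DESeq2 size factors, total counts or no filter, and 0 with any library left out. It stayed 1 under TMM without tRFs, tRNAs and rRNA, but there Rnu12 was lost and Rnu5g was called higher (1.33). All RNAs called in this comparison were 359 of 2023 in the main fit and 304 of 3005 with no filter. They were 348, 258 and 416 of 2023 under DESeq2 size factors, total counts and that TMM, and 175 to 225 with 1 library left out. In KO cauda against caput fluid the count of 1 became 0 under DESeq2 size factors, total counts, TMM without tRFs, tRNAs and rRNA, no filter or the block, and 0 with any library left out. Calls over all RNAs went, in the same order, from 525 of 2023 to 522, 392 and 566 of 2023, 465 of 3005 and 542 of 2023. With 1 library left out they were 261 to 444. In sperm the count of 0 became 0 to 2 with 1 library left out (2 without WT sperm replicate 4, where 326 of all 2836 RNAs were called). The causes were not tested. No result reversed past the threshold. The interaction tests were run with the main settings only. The shares and ratios kept their side of the threshold in 105 settings and 193 fits with 1 library left out, with 10 and 24 changes of sign. This says little, since only KO against WT sperm with all libraries could reach an exact permutation p under 0.05. Fits that left 1 library in a group, and splits of sperm by depth, were counted without a test. The block changed no other count. In the fluid comparisons, KO against WT caput and corpus tissue and sperm, the number is shared without a shown pairing, and of these every library correlated best with its own number only in WT corpus against caput fluid. The 2 libraries of KO corpus tissue, and the 14 to 119 counts of Rnu11 in fluid, limit what could be detected.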

Other observations

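Over the 17 tissue libraries, the RNAs outside the U RNAs whose log2 CPM followed the most counted member, Rnu2-10, most closely were tRNA-Asp-GTC-1-13 (Pearson's r = 0.986), tRNA-Asp-GTC-1-10 (0.970) and Snora30 (0.969), among 2362 RNAs compared. Over the 8 sperm libraries those nearest Rnu2-10 were Snora20 (0.992), Snora31 (0.987) and Mir21a (0.983) among 1837. Over the 18 fluid libraries the RNAs nearest Rnu1a1 were 3 repeat-derived 5S rRNA copies, at 0.660 to 0.664 among 1663. These are descriptions over libraries that share depth, segment and replicate number. In WT sperm replicate 4, Rnu73b was at 51 CPM and Rnu3b1 at 365, against 1.95 to 5.52 and 69.8 to 152 in the other 3 WT libraries. Rnu7 was lowest there, at 0.361 CPM, but this is 1 count, within the 3 counts that a count of 0 allows.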
